A study of Mus musculus with 12 samples.

Results

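Regulatory T cell and ILC2 genes were followed in 12 RNA-seq libraries of mouse white fat: Foxp3, Ctla4, Il2ra, Ikzf2, Icos, Gata3, Il1rl1, Klrg1, Il33 and Areg. The 10 genes were taken by symbol from a prepared list, out of 24890 features in the deposited tables, and each was found once with a value in every library. The mice were male C57BL/6J animals, 18 weeks old and fed normal chow, and no other treatment or allele is given for any group. Epididymal adipose tissue (EAT), a visceral depot, and inguinal adipose tissue (IAT), a subcutaneous depot, were digested with collagenase I and each was split into adipocytes and stromal vascular cells (SVCs), the mixed remainder that holds immune, endothelial, mesenchymal and, in some depots, mesothelial cells. This gave 4 groups of 3 libraries each: EAT SVCs, IAT SVCs, EAT adipocytes and IAT adipocytes. Whether a library stands for 1 mouse or for pooled mice is not in the labels, and the p-values then reflect only how far the libraries of a group spread, which may be technical.

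Regulatory T cells are CD4 T cells that hold back immune responses, and group 2 innate lymphoid cells (ILC2s) are lymphocytes without an antigen receptor that make type 2 cytokines. Visceral fat is known for a resident regulatory T cell population that carries ST2, the IL-33 receptor encoded by Il1rl1, together with KLRG1, GATA3 and amphiregulin, and ILC2s carry much the same set. IL-33, made by stromal cells and released on damage, signals through ST2 on both cell types, and amphiregulin, encoded by Areg, is one of the growth factors they release. Most of these genes are not exclusive to one cell type: mast cells also carry ST2, NK cells and effector T cells carry KLRG1, and activated T cells of other kinds express Ctla4, Icos and Il2ra.

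Levels are in FPKM (fragments per kilobase of exon per 1 M mapped fragments), a unit per length, so that different genes can be set side by side. In EAT SVCs the order of mean levels began with Il33 (13.0 FPKM), Areg (12.3) and Il1rl1 (9.32), went on through Gata3 (4.67), Ctla4 (4.27), Il2ra (4.16), Icos (3.10) and Klrg1 (2.60), and ended with Ikzf2 (0.664) and Foxp3 (0.566). Il33 and Areg overlapped between libraries there, as did Gata3 with Ctla4, Ctla4 with Il2ra, Icos with Klrg1, and Ikzf2 with Foxp3. In IAT SVCs the order of levels was another: Ctla4 (10.7 FPKM) and Icos (7.55) stood on top, followed by Il33 (6.34), Areg (3.93), Gata3 (3.64), Il1rl1 (2.98), Il2ra (2.52), Klrg1 (0.849), Foxp3 (0.771) and Ikzf2 (0.546). Overlapping neighbours in that order were Ctla4 with Icos, Icos with Il33, Areg with Gata3, and Klrg1 with Foxp3. In both adipocyte groups every one of the 10 genes had a mean under 1.4 FPKM, with Areg on top in EAT (1.31 FPKM) and Ikzf2 in IAT (0.637 FPKM). The plot of levels by library shows all 4 groups.

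**Figure D1:**
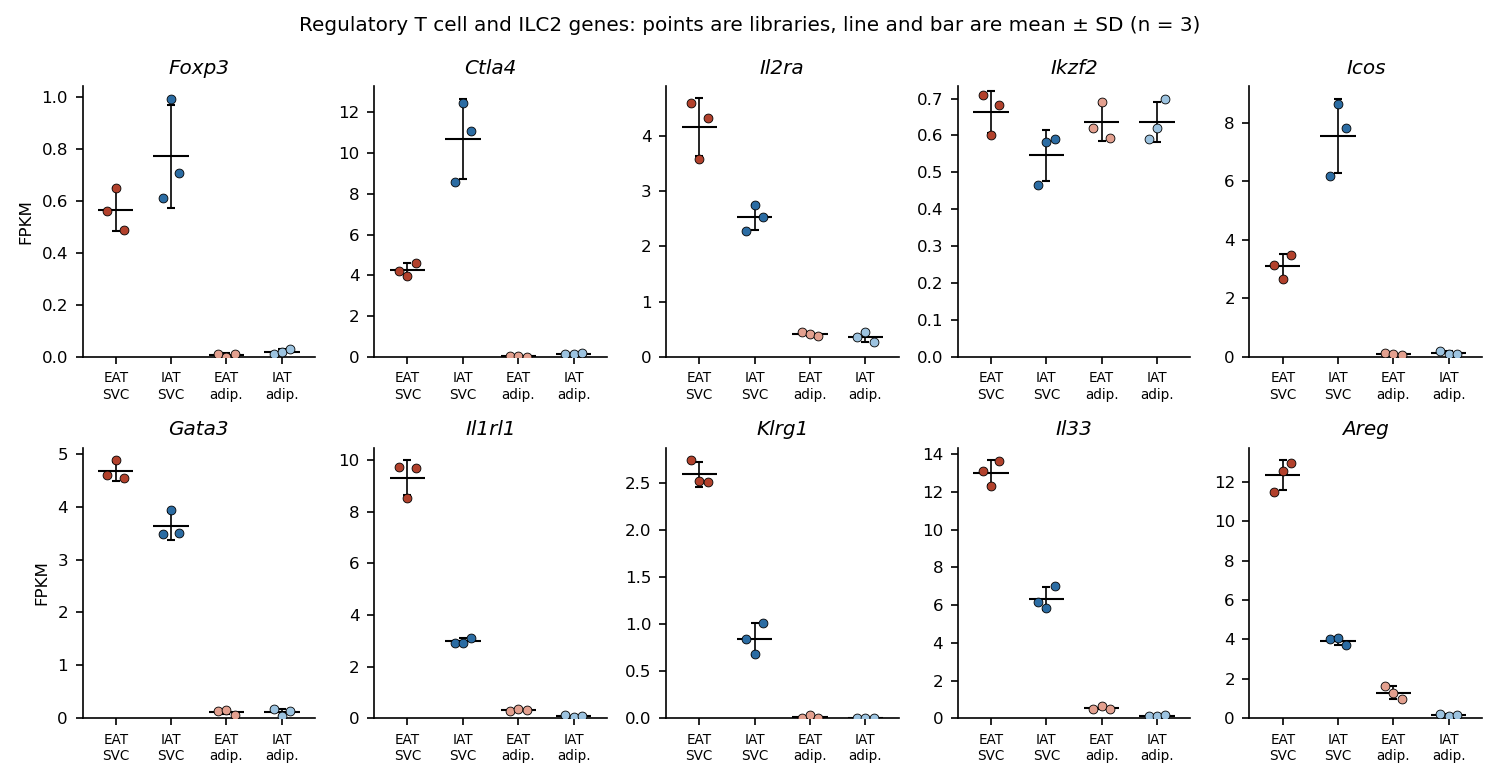
FPKM of the 10 genes (y axes, linear from 0) in EAT SVCs, IAT SVCs, EAT adipocytes and IAT adipocytes (x axes); each point is a library, the line the mean and the bar the SD of 3 libraries. Ctla4 and Icos are higher in IAT SVCs, Il1rl1, Klrg1, Il33 and Areg are higher in EAT SVCs, and Ikzf2 stays between 0.465 and 0.711 FPKM in all libraries.

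The files place the genes as follows on mm10 (1-based): Foxp3 at chrX:7579676-7595243, Ctla4 at chr1:60909025-60915832 with Icos beside it at chr1:60977914-61000321, Il2ra at chr2:11642792-11693194, Ikzf2 at chr1:69531210-69685960, Gata3 at chr2:9857078-9878600, Il1rl1 at chr1:40429570-40465414, Klrg1 at chr6:122270597-122282833, Il33 at chr19:29925114-29960715 and Areg at chr5:91139615-91148432. In the GENCODE vM21 annotation, exons of Foxp3 overlap those of Ccdc22 on the opposite strand and of the noncoding Flicr and Gm36995, exons of Ikzf2 overlap the antisense Gm29114, and exons of Gata3 the antisense Gm13256. Whether the counting used strand is not given in the sources used here. Ccdc22 was at 7.01 to 10.4 FPKM over the 12 libraries, and Foxp3 was at 0.0301 FPKM or less in the 6 adipocyte libraries. The other 7 genes had no exon overlap in that annotation.

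The sequences before the start sites are shown for 3 genes that were lower together in IAT SVCs (Areg, Il33 and Il1rl1) and for Ctla4, which was higher there. They come from RefSeq on GRCm38.p6, the patch level of the same assembly, as the 250 bases before the start, 5′ to 3′ on the strand of the gene. RefSeq entries were matched for 7 of the 10 genes, with 10 start sites. Capitals mark the letters GATAA, the core that GATA factors such as the GATA3 of these cells recognise, or TTATC, its reverse strand form, and, in Areg, the letters TGACGTCA of a cyclic AMP response element. Both strands were searched for GATAA, TGACGTCA and the AP-1 letters TGANTCA, and no match overlapped another.
Areg, chr5:91139349-91139598, plus strand: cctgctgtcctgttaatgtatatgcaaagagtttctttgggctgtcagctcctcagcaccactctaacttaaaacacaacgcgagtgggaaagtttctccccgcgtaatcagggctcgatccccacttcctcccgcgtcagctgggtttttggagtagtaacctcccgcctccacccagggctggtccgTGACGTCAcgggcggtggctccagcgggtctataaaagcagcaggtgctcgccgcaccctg
Il33, first start, chr19:29924863-29925112, plus strand: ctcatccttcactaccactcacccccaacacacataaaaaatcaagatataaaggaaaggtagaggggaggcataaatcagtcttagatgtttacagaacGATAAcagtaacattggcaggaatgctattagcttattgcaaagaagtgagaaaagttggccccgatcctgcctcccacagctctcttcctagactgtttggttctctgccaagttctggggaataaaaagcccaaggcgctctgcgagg
Il1rl1, first start, chr1:40429320-40429569, plus strand: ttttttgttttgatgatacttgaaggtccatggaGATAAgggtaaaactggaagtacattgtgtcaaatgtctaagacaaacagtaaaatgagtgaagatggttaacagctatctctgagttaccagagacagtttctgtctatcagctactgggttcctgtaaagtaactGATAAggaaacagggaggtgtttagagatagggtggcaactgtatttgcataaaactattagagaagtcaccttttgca
Il1rl1, second start, chr1:40439379-40439628, plus strand: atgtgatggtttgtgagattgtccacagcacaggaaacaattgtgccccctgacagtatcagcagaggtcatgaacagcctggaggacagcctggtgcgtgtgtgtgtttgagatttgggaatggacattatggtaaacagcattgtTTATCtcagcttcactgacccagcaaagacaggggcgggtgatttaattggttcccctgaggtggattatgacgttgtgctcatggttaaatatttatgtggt
Ctla4, chr1:60908775-60909024, plus strand: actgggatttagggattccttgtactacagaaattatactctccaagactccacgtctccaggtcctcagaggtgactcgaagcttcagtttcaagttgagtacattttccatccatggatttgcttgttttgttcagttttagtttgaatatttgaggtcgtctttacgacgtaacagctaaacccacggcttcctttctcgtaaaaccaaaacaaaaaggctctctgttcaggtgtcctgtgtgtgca

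GATAA stood 2 times before the first start of Il1rl1 and 1 time before its second, and 1 time before the first start of Il33. Both starts of Foxp3 held it too, so that 5 of the 10 entries had the letters, against 22.6% of the 32851 RefSeq promoters of this length. These 5 entries come from Foxp3, Il1rl1 and Il33 alone, Foxp3 and Il1rl1 with both starts each, so that no excess is read from them. Areg, Ctla4, Il2ra, Gata3 and the second start of Il33 did not hold GATAA in this window. Areg held TGACGTCA 1 time, which 1.55% of all promoters do, and none of the 10 entries held TGANTCA, which 6.75% do. A match of letters is a description and not a binding site. The values are per gene and do not separate the starts of Il1rl1 or Il33.

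The comparison of IAT with EAT SVCs asked which of these transcripts differ between depots in the fraction where immune and stromal cells are found. Il1rl1, Klrg1, Areg and Il33 were 2.05 to 3.14 times higher in EAT SVCs, Il2ra 1.65 times and Gata3 1.28 times, while Ctla4 was 2.51 times and Icos 2.44 times higher in IAT SVCs. All 8 genes that reached 1 FPKM in at least 3 libraries were called (limma on log2(FPKM + 1), Benjamini-Hochberg adjusted p under 0.05 over 13175 features). Of these, 2 were higher in IAT, where 14.0% of all features tested were called higher, and 6 were lower in IAT, where 26.2% were called lower. Klrg1 passed the filter through its EAT SVC libraries (2.52 to 2.74 FPKM, against 0.679 to 1.02 FPKM in IAT SVCs), so that the filter favours this count. The median log2 difference of the 8 genes was -0.74, beside -0.06 over all features tested. Foxp3 and Ikzf2 stayed under 1 FPKM in every library and were fitted without that filter. In these bulk libraries fewer cells of a type and less RNA per cell cannot be told apart.

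Il1rl1, the receptor for IL-33, was at 9.72, 8.53 and 9.70 FPKM in the EAT SVC libraries and at 2.90, 2.91 and 3.12 FPKM in those of IAT. The groups lay far apart, with the lowest EAT library well above the highest IAT library. The log2 difference, IAT minus EAT, was -1.37 ± 0.065 (SE; adjusted p = 4.4e-09). Klrg1, an inhibitory receptor of terminally differentiated lymphocytes that binds cadherins, was at 2.74, 2.53 and 2.52 FPKM in EAT SVCs and at 0.848, 0.679 and 1.02 FPKM in IAT SVCs, again with no overlap. Its log2 difference was -0.96 ± 0.066 (adjusted p = 1.3e-07), with 68 to 121 fragments estimated behind a value in EAT SVCs and 19 to 36 in IAT SVCs. Gata3, the transcription factor of type 2 lymphocytes, was at 4.59, 4.88 and 4.54 FPKM in EAT SVCs and at 3.48, 3.93 and 3.49 FPKM in IAT SVCs. The 2 groups did not overlap, but the gap was small. Its log2 difference was -0.29 ± 0.068 (adjusted p = 0.00444), and the call was lost with a pseudocount of 0.1 (adjusted p = 0.241) and with quantile normalization (adjusted p = 0.0782), out of a range of 0.00125 to 0.241 over the alternatives.

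Il33, the stromal alarmin that binds the Il1rl1 product, was at 13.1, 12.3 and 13.6 FPKM in EAT SVCs and at 6.18, 5.85 and 7.00 FPKM in IAT SVCs. Ligand and receptor transcripts were thus both higher in the EAT libraries, without overlap for either. The log2 difference of Il33 was -0.93 ± 0.074 (adjusted p = 5.7e-07). Areg, the EGF receptor ligand amphiregulin, was at 11.5, 12.6 and 13.0 FPKM in EAT SVCs and at 4.01, 4.07 and 3.72 FPKM in IAT SVCs. The IAT libraries lay close together at less than the lowest EAT library. Its log2 difference of -1.43 ± 0.092 (adjusted p = 7.2e-08) was the largest in size of the 8 genes.

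Ctla4, the inhibitory receptor that competes with CD28 for CD80 and CD86, was at 4.23, 3.98 and 4.61 FPKM in EAT SVCs and at 8.59, 12.5 and 11.1 FPKM in IAT SVCs. Icos, the costimulatory receptor encoded next to it, was at 3.14, 2.66 and 3.49 FPKM in EAT SVCs and at 6.17, 8.65 and 7.83 FPKM in IAT SVCs. Both genes were higher in every IAT library than in any EAT library, and for both IAT replicate 1 was the lowest of its group. The log2 differences were 1.14 ± 0.10 for Ctla4 (adjusted p = 1.9e-06) and 1.06 ± 0.10 for Icos (adjusted p = 4.4e-06). Il2ra, the alpha chain of the IL-2 receptor, went the other way, with 4.59, 3.58 and 4.32 FPKM in EAT SVCs and 2.28, 2.75 and 2.53 FPKM in IAT SVCs. Its groups did not overlap, and its log2 difference was -0.55 ± 0.084 (adjusted p = 2.0e-04).

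Foxp3, the transcription factor that defines regulatory T cells, was at 0.559, 0.651 and 0.487 FPKM in EAT SVCs and at 0.612, 0.992 and 0.708 FPKM in IAT SVCs. The groups overlapped. Without the filter on low values, where 36.1% of 20312 features were called in either direction, the log2 difference of Foxp3 was 0.17 ± 0.066 (adjusted p = 0.0668; exact permutation p = 0.2). Over the alternatives its adjusted p ran from 0.0155 to 0.2, and the difference was called with median-of-ratios scaling (adjusted p = 0.0395), with quantile normalization (adjusted p = 0.0248) and when IAT SVC replicate 1 was left out (log2 difference 0.24, adjusted p = 0.0155). Ikzf2, which encodes Helios, was at 0.711, 0.601 and 0.681 FPKM in EAT SVCs and at 0.465, 0.582 and 0.591 FPKM in IAT SVCs. The groups did not overlap, by a small margin, and the difference did not pass the test (log2 difference -0.11 ± 0.044, adjusted p = 0.0885; exact permutation p = 0.1, the smallest that 3 against 3 libraries allow). Between 37 and 84 fragments were estimated behind a Foxp3 value in SVCs, and its depot difference was detectable under some settings and not under others.

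**Figure D2:**
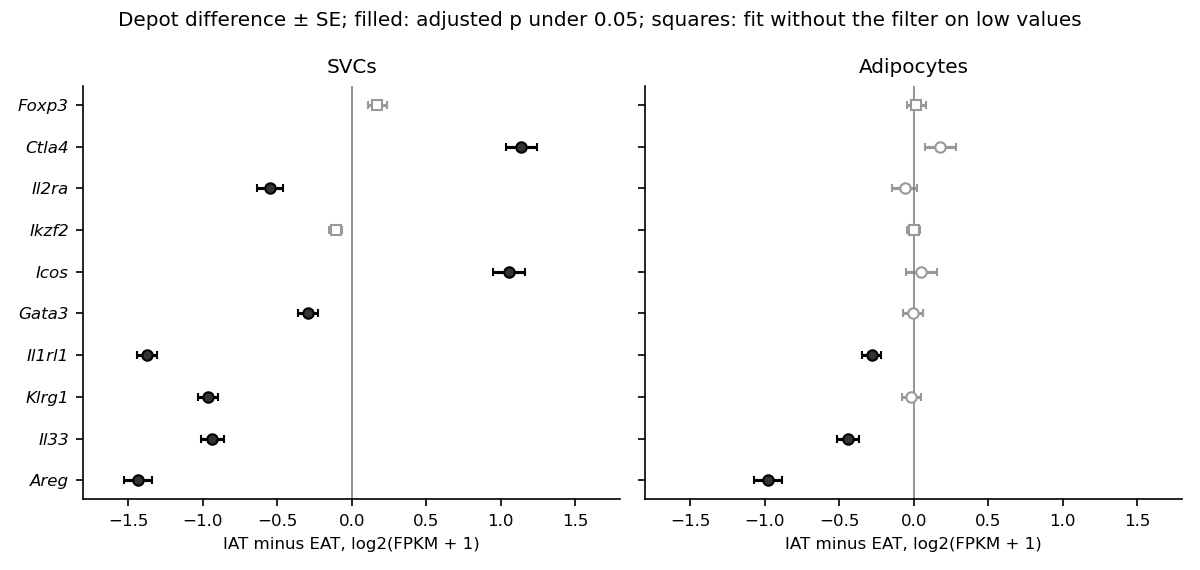
Log2 difference of log2(FPKM + 1), IAT minus EAT, with its SE (x axis) for the 10 genes (y axis), in SVCs on the left and in adipocytes on the right; filled symbols had an adjusted p under 0.05, and squares come from the fit without the filter on low values. In SVCs Ctla4 and Icos lie to the right of 0 and Il2ra, Gata3, Il1rl1, Klrg1, Il33 and Areg to the left; in adipocytes Il1rl1, Il33 and Areg lie to the left.

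Markers of other cells moved between the SVC groups, where 14.0% of all features tested were called higher in IAT and 26.2% lower. Some marker genes reached 1 FPKM only in the depot where they are higher, so that the filter favours their counts. T cell genes were higher in IAT SVCs in 11 of 12 cases and lower in 0, with a summed level of 181.8 to 288.6 FPKM against 37.6 to 40.1 FPKM in EAT SVCs. Cd3e, a chain of the T cell receptor complex, was at 9.66 ± 3.11 FPKM (SD, n = 3) in IAT SVCs and at 1.38 ± 0.215 FPKM in EAT SVCs. B cell genes (8 of 8) and genes of lymph node and naive lymphocytes (9 of 10 tested) were called higher in IAT SVCs as well, among them Ccr7, a homing receptor of naive lymphocytes, at 95.5 against 17.6 FPKM. The mouse inguinal pad is known to enclose a lymph node, and the part of these cells in the higher Ctla4 and Icos levels was not tested. No T or B cell gene of these lists was at 0 in an SVC group.

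Other markers moved with the genes that were higher in EAT SVCs. All 8 mesothelial genes tested were lower in IAT SVCs, with a summed level of 429.5 to 501.0 FPKM in EAT SVCs and 1.78 to 2.33 FPKM in IAT SVCs, and 1 of the 8 was at 0 in every IAT SVC library. Apart from Krt19 these genes reached 1 FPKM in EAT libraries only, so that the filter favours this count. Macrophage genes were lower in IAT SVCs in 7 of 8 cases (summed level 1144 to 1263 FPKM against 1721 to 1802 FPKM), and mast cell genes in 5 of 7 tested (115.9 to 130.5 FPKM against 166.6 to 176.4 FPKM). Genes of fibroblasts and progenitors split into 4 higher and 5 lower, and those of tissue dissociation, which digestion can induce, into 2 higher, 3 lower and 5 not called. Their part in the levels of Il33, Il1rl1 and Areg was not tested. NK cell genes were higher in IAT SVCs in 6 of 6 tested (51.4 to 60.5 FPKM against 22.0 to 27.9 FPKM), the opposite direction to Klrg1.

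Because T cell transcripts differed so much between the depots, 5 genes carried by regulatory T cells were also divided by the CD3 level of the same library, the geometric mean FPKM of Cd3d, Cd3e and Cd3g. That CD3 level was 1.91, 2.37 and 2.14 FPKM in EAT SVCs and 14.5, 23.7 and 16.0 FPKM in IAT SVCs, 8.28 times higher in IAT. A gene at the same plain level in both depots would therefore have a ratio 8.28 times higher in EAT, and the direction of the ratios below is set by CD3. The ratios were higher in EAT SVCs for Foxp3 by 6.16 times, Ctla4 by 3.34 times, Il2ra by 13.6 times, Ikzf2 by 10.1 times and Icos by 3.41 times. The Foxp3 ratio was 0.294, 0.275 and 0.227 in the EAT libraries and 0.0423, 0.0418 and 0.0443 in those of IAT. The ratios of Foxp3, Ctla4 and Icos thus differed by less than the 8.28 times of CD3, and those of Il2ra and Ikzf2 by more. Plain means were higher in IAT SVCs for the first 3 and lower for the other 2. By plain level Il2ra was 1.65 times and Ikzf2 1.22 times higher in EAT SVCs, smaller differences than that of CD3. The Ctla4 ratio was 2.22, 1.68 and 2.15 in EAT SVCs and 0.593, 0.525 and 0.692 in IAT SVCs, and the Icos ratio was 1.65, 1.12 and 1.63 against 0.426, 0.365 and 0.490. For Ctla4 and Icos, T cell genes higher in IAT SVCs by plain level, the excess in IAT was smaller than that of CD3.

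No library of one depot overlapped the other in any of the 5 ratios, and the exact permutation test gave its smallest possible value, p = 0.1, for each (two-sided, 5 ratios), which the CD3 difference alone would give. The log2 differences, IAT minus EAT, were -2.62 for Foxp3, -1.74 for Ctla4, -3.77 for Il2ra, -3.34 for Ikzf2 and -1.77 for Icos. The size depends on the reference: divided by Cd4, the ratio was 3.28 times higher in EAT for Foxp3, 1.78 times for Ctla4, 7.25 times for Il2ra, 5.38 times for Ikzf2 and 1.81 times for Icos. The ratio sets a gene beside the CD3 RNA of T cells of every kind and does not count cells. Ikzf2 stood at nearly its SVC level in adipocytes, where CD3 was near 0, so that its level did not follow CD3 across the fractions, and Il2ra is also carried by cells without CD3.

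**Figure D3:**
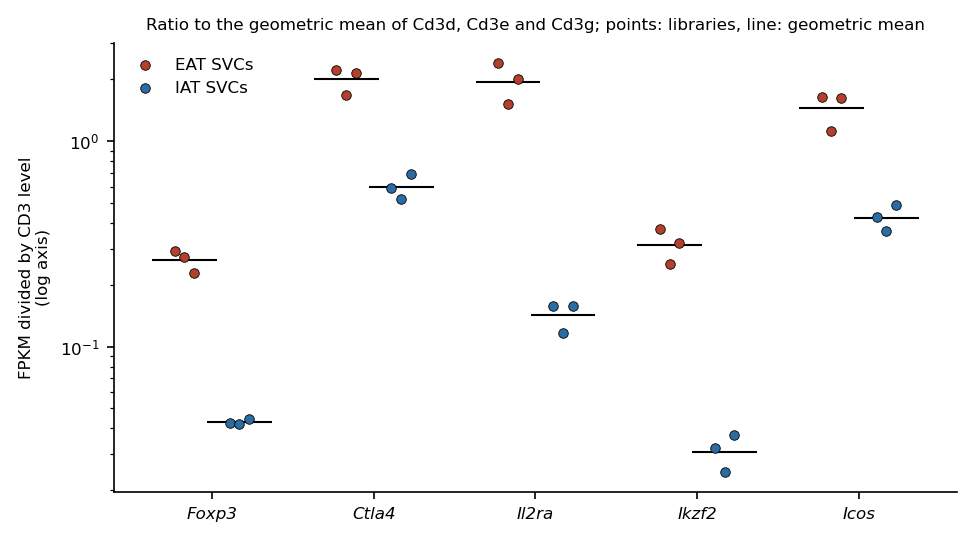
FPKM divided by the geometric mean FPKM of Cd3d, Cd3e and Cd3g in the same library (y axis, log scale) for Foxp3, Ctla4, Il2ra, Ikzf2 and Icos in the SVC libraries of EAT (red) and IAT (blue); points are libraries and lines geometric means. EAT libraries lie above IAT libraries for each gene, with Foxp3 at 0.264 against 0.0428; the CD3 level itself was 8.28 times higher in IAT.

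Other genes linked with these cells were taken from lists set for this tissue. Their levels were uneven: in EAT SVCs Lrrc32 was at 69.6 FPKM, Entpd1 at 24.7 and Batf at 17.7, beside Foxp3 at 0.566. Which cells of the mixed fraction held them was not tested. Of 16 other regulatory T cell genes, 13 passed the filter: 5 were higher in IAT SVCs, 4 lower and 4 were not called, with a median log2 difference of 0.15. Over all features tested 14.0% were called higher and 26.2% lower. Ccr8 reached 1 FPKM only in EAT SVCs and Izumo1r only in IAT SVCs, so that the filter favours these counts. Izumo1r, a folate receptor family gene of regulatory and anergic T cells, was higher in IAT SVCs (3.94 ± 0.935 against 0.230 ± 0.0777 FPKM; SD, n = 3), with a log2 difference of 1.99 and an adjusted p = 1.4e-08. Itgae, the integrin alpha chain CD103, was higher too (2.54 against 0.324 FPKM, adjusted p = 1.7e-07), as was the costimulatory receptor Tnfrsf9 (2.60 against 1.22 FPKM, adjusted p = 4.3e-06). Ccr8, a chemokine receptor of tissue regulatory T cells, was lower in IAT SVCs (0.517 ± 0.170 against 1.29 ± 0.202 FPKM, adjusted p = 7.3e-05), and so was the transcription factor Batf (log2 difference -0.64, adjusted p = 0.00104). Tnfrsf18 and Tigit, a costimulatory and an inhibitory receptor, overlapped between the depots and were not called. Lrrc32 (log2 difference -0.48, adjusted p = 0.0586) and Entpd1 (-0.20, adjusted p = 0.159) were lower in IAT SVCs without overlap and were not called either. The calls of Il10 and Ebi3 (lower) and of Tnfrsf4 and Il2rb (higher) were lost under at least 1 alternative setting.

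Of 17 other ILC2 and type 2 genes, 12 passed the filter: 9 were lower in IAT SVCs, 2 higher and 1 was not called, with a median log2 difference of -0.57. Over all features tested 26.2% were called lower and 14.0% higher. Il5, Il13 and Arg1 reached 1 FPKM only in EAT SVCs and Bcl11b only in IAT SVCs. Il4 and Csf2 passed through their EAT SVC libraries as well, since not every IAT SVC library reached 1 FPKM. The filter thus favours these counts. Il5, the eosinophil cytokine that ILC2s secrete, was at 2.59 ± 0.203 FPKM in EAT SVCs and 0.265 ± 0.0156 FPKM in IAT SVCs (SD, n = 3), 9.77 times higher in EAT (log2 difference -1.50, adjusted p = 5.1e-10). Il13, a second type 2 cytokine, was 2.17 times higher in EAT (1.54 against 0.709 FPKM, adjusted p = 3.9e-05), and Il4 was at 1.51 against 0.965 FPKM (adjusted p = 0.00474). The growth factor gene Csf2 was at 6.21 against 1.03 FPKM and Arg1, an arginase that ILC2s and macrophages make, at 5.13 against 0.438 FPKM (adjusted p = 1.9e-08 and 5.9e-09). Penk, the precursor of enkephalin peptides, was at 262.7 ± 18.8 FPKM in EAT SVCs, the highest level of the list there, and at 33.1 ± 1.32 FPKM in IAT SVCs (adjusted p = 2.1e-10). Rora, a transcription factor needed by ILC2s, was lower in IAT SVCs as well (7.44 against 4.72 FPKM, adjusted p = 4.2e-04).

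The 2 genes of that list that were higher in IAT SVCs were Bcl11b, a transcription factor of T cells and ILC2s (4.96 against 0.562 FPKM, adjusted p = 1.6e-08), and Il7r, the IL-7 receptor (9.30 against 4.99 FPKM, adjusted p = 5.1e-04). Which cells held the transcripts of this list, Penk included, was not tested. Id2, a factor of all innate lymphoid cells that many other cells express, was at 72.1 ± 9.28 FPKM in EAT SVCs and 75.1 ± 2.07 FPKM in IAT SVCs and was not called. The receptors Il17rb, Ptgdr2 and Nmur1 and the enzyme Tph1 did not reach the filter, and Il9 was listed at 0 in every library. The call of Crlf2, the TSLP receptor (lower), was lost under 5 alternative settings.

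**Figure D4:**
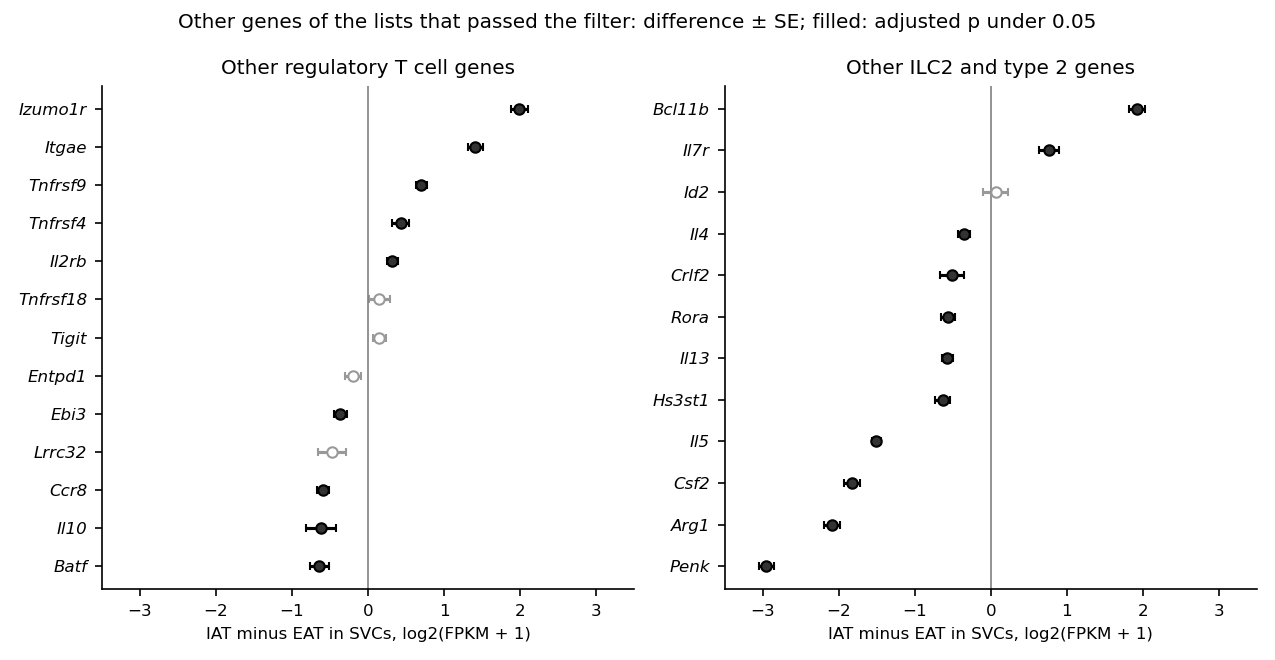
Log2 difference of log2(FPKM + 1), IAT minus EAT in SVCs, with its SE (x axis) for the 13 other regulatory T cell genes (left) and the 12 other ILC2 and type 2 genes (right) that passed the filter on low values; filled points had an adjusted p under 0.05. The regulatory T cell genes spread to both sides of 0, with 5 called higher and 4 lower, and 9 of the ILC2 and type 2 genes lie called to the left.

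Partners of these receptors and ligands were counted too: of 17 listed, 14 passed the filter, with 3 higher and 5 lower in IAT SVCs and 6 not called. Il1rap, the accessory chain of ST2, did not differ beyond its spread (4.31 ± 0.286 FPKM in EAT SVCs, 4.68 ± 0.559 FPKM in IAT SVCs; adjusted p = 0.464), in contrast to Il1rl1 and Il33 on either side of it. Egfr, the receptor of amphiregulin, was at 31.4 ± 2.24 and 32.9 ± 2.17 FPKM (adjusted p = 0.705), while Adam17, the protease that sheds amphiregulin, was lower in IAT SVCs (17.4 against 24.0 FPKM, adjusted p = 1.7e-04). Icosl, the ligand of Icos, overlapped between the depots at 13.7 ± 0.198 and 13.5 ± 1.07 FPKM (adjusted p = 0.918).

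Cd80 and Cd86, the ligands of Ctla4 on antigen presenting cells, were lower in IAT SVCs, in the direction opposite to Ctla4. Cd80 was at 8.14 ± 0.556 FPKM in EAT SVCs and 2.32 ± 0.297 FPKM in IAT SVCs (adjusted p = 7.5e-09), and Cd86 at 23.3 ± 2.34 and 12.6 ± 0.557 FPKM (adjusted p = 6.0e-05). Il2rg, the gamma chain shared by several cytokine receptors, was higher in IAT SVCs, opposite to Il2ra (69.2 ± 9.36 against 30.8 ± 1.49 FPKM, adjusted p = 1.1e-06). Tslp, an alarmin like Il33, was lower in IAT SVCs (6.60 against 11.2 FPKM, adjusted p = 0.00439). Of the 6 other EGF receptor ligands 3 passed the filter, with Tgfa lower in IAT SVCs (1.48 against 2.47 FPKM, adjusted p = 2.6e-05), and Hbegf and Btc not called.

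The same depot comparison in adipocytes asked whether these transcripts differ in the other fraction. Areg, Il33 and Il1rl1 were lower in IAT adipocytes, and none of the genes was called higher: 3 of the 8 tested were called lower, where 27.3% of all features were, and 0 higher, where 10.3% were, also at an unadjusted p under 0.05 in limma. The median log2 difference of the 8 genes was -0.04, beside -0.10 over all features tested. Areg was at 1.62, 1.31 and 0.997 FPKM in EAT adipocytes and at 0.197, 0.126 and 0.174 FPKM in IAT adipocytes, 7.91 times higher in EAT. The groups did not overlap, although the EAT libraries spread widely. The log2 difference was -0.98 ± 0.092 (adjusted p = 4.8e-06).

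Il33 was at 0.505, 0.631 and 0.503 FPKM in EAT adipocytes and at 0.136, 0.122 and 0.150 FPKM in IAT adipocytes (log2 difference -0.44 ± 0.074, adjusted p = 5.7e-04). Il1rl1 was at 0.271, 0.342 and 0.338 FPKM against 0.110, 0.0626 and 0.0758 FPKM (log2 difference -0.28 ± 0.065, adjusted p = 0.005). Both were without overlap, at levels under 1 FPKM where 6 to 39 fragments were estimated behind a value. Ctla4 was at 0.0201, 0.0435 and 0 FPKM in EAT adipocytes and at 0.160, 0.137 and 0.172 FPKM in IAT adipocytes, on 0 to 6 estimated fragments. These groups did not overlap, and the call depended on the setting, with an adjusted p = 0.193 that ran from 2.6e-04 to 0.342 over the alternatives. It was called with a pseudocount of 0.1 or 0.5, after rescaling to TPM, with quantile normalization and in a fit on both adipocyte groups alone.

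Il2ra, Icos, Gata3 and Klrg1 overlapped between the adipocyte groups and were not called, with log2 differences between -0.06 and 0.05. Foxp3 and Ikzf2 did not pass either, in the fit without the filter in which 23.9% of features were called. Macrophage genes and mesothelial genes were lower in IAT adipocytes in 8 of 8 cases each (macrophages: 42.5 to 58.9 FPKM against 209.8 to 256.9 FPKM in sum). Apart from Krt19 the mesothelial genes reached 1 FPKM in EAT libraries only, so that the filter favours their count. Of 12 T cell genes 1 was higher, 1 lower and 10 were not called. Of 9 genes of fibroblasts and progenitors 6 were higher and 2 lower. Called higher were 3 of 8 endothelial, 3 of 8 B cell, 2 of 6 NK cell and 7 of 10 tissue dissociation genes, with 0 lower. Mast cell genes were not called. Over all features tested 10.3% were called higher and 27.3% lower. The part of cells left in the adipocyte fraction in the levels of Areg, Il33 and Il1rl1 was not tested. Of the 14 partners tested, 4 were higher in IAT adipocytes, 6 lower and 4 were not called. Among them, Egfr was lower in IAT adipocytes (6.90 ± 0.529 against 13.8 ± 2.38 FPKM, adjusted p = 5.3e-05), a depot difference other than in SVCs (interaction 0.96 ± 0.16, adjusted p = 5.3e-04). Myd88, the adaptor of the IL-33 receptor, was higher in IAT adipocytes (32.4 ± 1.29 against 13.3 ± 0.693 FPKM, adjusted p = 4.3e-08).

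The comparison of adipocytes with SVCs asked which fraction holds each transcript. In both depots all 8 genes tested were lower in adipocytes, where 52.7% of all features were called lower in EAT and 53.9% in IAT, and 0 were higher, where 31.1% and 29.8% were, also at an unadjusted p under 0.05 in limma. The 8 genes passed the filter through their SVC libraries, so that the filter favours this count and nothing is read from it, and Ikzf2, at a like level in both fractions, did not pass. The median log2 difference of all features tested was -0.31 in EAT and -0.34 in IAT, a shift that median-of-ratios scaling brought to 0.00 in both. In EAT the differences ran from -1.83 for Klrg1 to -3.18 for Il33 (adjusted p = 7.0e-13), and in IAT from -0.88 for Klrg1 to -3.33 for Ctla4 (adjusted p = 7.4e-12). Foxp3 was lower in adipocytes in the fit without the filter, in which 71.2% of features were called in EAT and 66.4% in IAT, with log2 differences of -0.64 (adjusted p = 7.9e-06) and -0.79 (adjusted p = 1.4e-06).

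Ikzf2 was the exception. It was at 0.621, 0.692 and 0.594 FPKM in EAT adipocytes and at 0.591, 0.621 and 0.698 FPKM in IAT adipocytes, close to its level in SVCs. Its log2 differences, adipocytes minus SVCs, were -0.02 in EAT (adjusted p = 0.637, range 2.4e-06 to 1 over the alternatives) and 0.08 in IAT (adjusted p = 0.129, range 6.3e-07 to 0.416). With median-of-ratios scaling they were 0.13 (adjusted p = 0.0205) and 0.25 (adjusted p = 3.4e-04), so that its direction in EAT turned with the scaling.

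Set as a share of the SVC mean, the adipocyte mean was 0.496% for Ctla4, 1.26% for Foxp3, 2.58% for Gata3, 3.06% for Icos, 3.40% for Il1rl1, 4.20% for Il33, 9.94% for Il2ra and 10.6% for Areg in EAT. The median share of a list was 1.49% for T cell markers, 12.7% for macrophage markers and 16.8% for endothelial markers in EAT, with Areg and Il2ra above the first and below the other two. In IAT the shares were 1.46% for Ctla4, 1.78% for Icos, 2.15% for Il33, 2.59% for Foxp3, 2.78% for Il1rl1, 3.24% for Gata3, 4.21% for Areg and 14.1% for Il2ra. The medians there were 1.36% for T cell markers, 3.72% for macrophage markers and 18.1% for endothelial markers. Klrg1 was listed at 0 in all 3 IAT adipocyte libraries and in 2 of the 3 of EAT, and Ikzf2 stood at 95.7% in EAT and 116.6% in IAT.

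**Figure D5:**
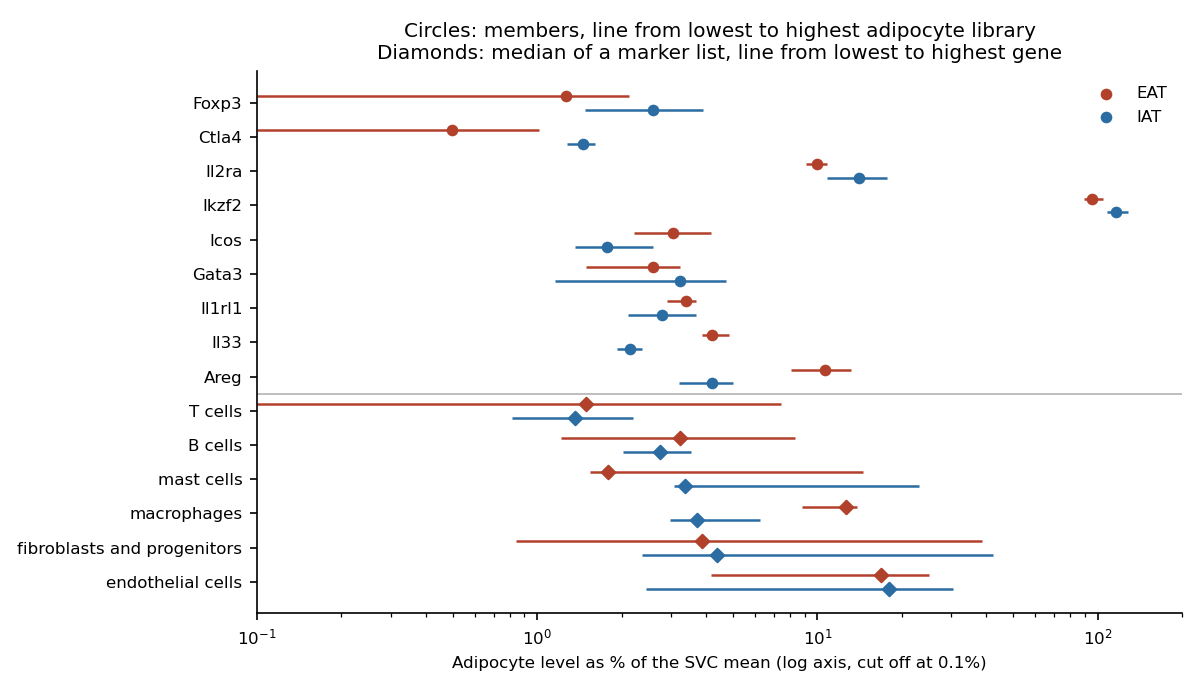
Adipocyte level as a percent of the SVC mean of the same depot (x axis, log scale) for 9 of the genes (circles, with a line from the lowest to the highest adipocyte library) and for lists of cell type markers (diamonds at the median, with a line from the lowest to the highest gene), in EAT (red) and IAT (blue); lines are clipped at 0.1%, and Klrg1 is left out because most of its adipocyte values are 0. Ikzf2 lies near 100%, Areg and Il2ra near 10% in EAT, and the other genes lie below 5%.

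Whether the depot difference in SVCs differed from that in adipocytes was tested as an interaction. On the log2(FPKM + 1) scale 2 of the 8 genes, Ctla4 and Icos, were called higher (17.8% of all features were) and the other 6 lower (14.7% were), with a median of -0.47 beside 0.04 over all features tested. The 8 genes passed the filter through their SVC libraries, and for genes close to 0 in adipocytes this scale compresses the adipocyte difference. The filter and the scale thus favour this count. With a pseudocount of 0.1, 3 of the 8 were called, Icos and Klrg1 in the same direction and Areg in the opposite one, and Il33 also changed sign. The interaction calls of the genes other than Icos and Klrg1 thus rest on the pseudocount.

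The features whose log2(FPKM + 1) ran most like that of 4 of the genes over the 12 libraries are given as a description. These libraries fall into 4 groups, so that a high correlation says little beyond a like order of the group means. The nearest to Il33 were Rgag4 (Pearson r = 0.999), Gabra3, Inpp4a, Itga9 and Serpinb6b, and the nearest to Il1rl1 were Cd109 (r = 0.999), Robo1, Tgfb2, Flrt2 and Ctgf. The nearest to Areg were Penk (r = 0.998), Osm, Kcnk13, Mpp6 and Ptgis. The nearest to Foxp3 were Faah (r = 0.996), Plcb2, Isg20, B4galnt1 and Ctse.

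The libraries held 14.1 M to 24.6 M estimated gene fragments, and 10726 to 12425 features reached 1 FPKM. Libraries of a group correlated at r = 0.982 or more across features, which are not independent replicates, and no library repeated another. Adipocyte markers were called higher in adipocytes than in SVCs in 8 of 8 cases in both depots, Adipoq among them at 4150 and 3461 FPKM against 7.18 and 21.7 FPKM, and both SVC groups held T cell, macrophage and endothelial markers.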

How the data were processed

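Gene levels were taken from 12 deposited tables, 1 per library, which hold FPKM with lower and upper confidence bounds per gene in the layout of Cufflinks, per the file headers. The authors made these FPKM values with TopHat and Cufflinks on GRCm38 (mm10), per the submitters' processing notes; versions, settings, strand and annotation are not given in the sources used here. FPKM are no counts, so no count test was run. Fragments behind a value were estimated from its bounds, and 9 features with a failed estimate were left out.

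Values were fitted as log2(FPKM + 1) with limma 3.58.1 (lmFit, eBayes with a trend) in R 4.3.3, over 4 group means, two-sided, on the 13175 features that reached 1 FPKM in 3 or more of the 12 libraries, with Benjamini-Hochberg adjustment within a contrast and a call under 0.05. Differences of log2(FPKM + 1) understate the change of low genes. Genes under the filter were taken from a fit without it (20312 features above 0 in at least 1 library) and from exact permutation tests. The procedure was also run on simulated data with far fewer changed features than were called here, and nothing about these calls is read from that run. CD3 ratios, promoter matches and figures came from Python 3.11.15 with SciPy 1.17.1, pandas 2.3.3, NumPy 2.4.6 and matplotlib 3.10.9.

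The 10 genes, the 4 lists of related genes and the 11 marker lists were chosen with earlier results of these data known. Named are all 10 genes, any gene of the 4 lists, the first 3 genes of each marker list and the 5 features most like Foxp3, Il1rl1, Il33 and Areg. The labels number the libraries of each group 1 to 3: deviations from the group means correlated at -0.312 to 0.373 over 18 pairs with the same number, 5 of them over 0.1, so the numbers were not used as pairs. Alternatives were other pseudocounts, filters, scalings, weights, a fit on the compared groups, the number as a block and leaving out each library. The labels give no batch.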

Additional observations from a re-analysis of the deposited data

Results flagged for a closer look

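The depot difference (IAT minus EAT) differed between SVCs and adipocytes by limma's interaction test in all 8 genes tested, with n = 3 libraries a group. Over all features tested 17.8% were called higher and 14.7% lower. The 8 genes passed the filter through their SVC libraries and were low in adipocytes, where this scale compresses a difference. The filter and the scale thus favour this count, and with a pseudocount of 0.1 it was 3. The difference in SVCs exceeded that in adipocytes by 0.96 on the log2(FPKM + 1) scale for Ctla4 (adjusted p = 2.8e-04) and by 1.00 for Icos (adjusted p = 2.2e-04). For the other 6 genes the SVC difference was further toward EAT on this scale. As a fold of FPKM the EAT excess was larger in adipocytes than in SVCs for Areg (7.91 against 3.14 times), Il33 (4.01 against 2.05) and Il1rl1 (3.83 against 3.13), and at a pseudocount of 0.1 the Areg interaction was called in the opposite direction (0.77, adjusted p = 0.0219). The interaction was -1.09 for Il1rl1 (adjusted p = 2.0e-06), -0.95 for Klrg1 (7.5e-06), -0.49 for Il33 (0.00339), -0.49 for Il2ra (0.00756), -0.46 for Areg (0.0182) and -0.29 for Gata3 (0.0386). Over the alternatives the adjusted p ran up to 0.578 for Ctla4, 0.0162 for Icos, 0.11 for Il1rl1, 0.00109 for Klrg1, 0.172 for Il33, 0.101 for Il2ra, 0.674 for Areg and 0.512 for Gata3, whose call was lost under 15 alternative settings. Groups of 3 libraries are too small for a test of single outlying libraries, and none was run.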

How the results depend on the processing

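Of 1115 recomputed values of the 10 genes over 23 settings, 1065 kept their direction and their side of the threshold. With the direction kept, 25 lost a call and 11 gained one. The other 14 changed sign, and some of these also lost or gained a call. The CD3 ratios are not part of this count and are given below. Of 1054 values of 46 called depot differences of other genes, 51 lost the call and none changed sign. The number of the 8 genes called in the interaction moved from 8 to 3 with a pseudocount of 0.1 and to 5 with a pseudocount of 0.5 or after rescaling to TPM. Il33 (0.42) and Areg (0.77, called) then had interactions of the other sign at a pseudocount of 0.1. The other sign changes were near 0 in the adipocyte depot difference: Il2ra with quantile normalization (0.0021), Gata3 with median-of-ratios scaling (0.012), with quantile normalization (0.018) and without EAT adipocyte replicate 1 (0.0093), EAT adipocyte replicate 2 (0.015) or IAT adipocyte replicate 2 (0.045; range -0.039 to 0.045 when each library is left out), and Ikzf2 after rescaling to TPM (-0.021) and without EAT adipocyte replicate 1 (-0.0057), EAT adipocyte replicate 3 (-0.018) or IAT adipocyte replicate 3 (-0.026; range -0.026 to 0.025). Ikzf2 in EAT, adipocytes minus SVCs, was 0.13 with median-of-ratios scaling and 0.48 with quantile normalization. The cause was not tested.

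The log2 CD3 ratios, IAT over EAT SVCs, were with Cd4 as the reference -1.71 (Foxp3), -0.83 (Ctla4), -2.86 (Il2ra), -2.43 (Ikzf2) and -0.86 (Icos), with Cd3e alone -2.35 (Foxp3), -1.47 (Ctla4) and -1.50 (Icos), and with 12 T cell genes, a reference added after seeing the data, -2.40 (Foxp3) and -1.51 (Ctla4). Leaving out each library gave -2.73 to -2.55 for Foxp3, -1.87 to -1.64 for Ctla4, -3.95 to -3.61 for Il2ra, -3.49 to -3.18 for Ikzf2 and -1.95 to -1.66 for Icos. It gave 8 to 8 called genes in the SVC depot comparison and in both fraction comparisons, 3 to 3 in the adipocyte depot comparison and 7 to 8 in the interaction. The replicate number as a block gave 8, 8, 8, 3 and 7 called genes in the same order; the interaction of Gata3 lost its call under this replicate block (adjusted p = 0.057), one of 15 settings in which it did. The median of all features in the SVC depot comparison moved from -0.06 to -0.16 after rescaling to TPM. The bounds behind the fragment estimates cover counting error only, and levels under 1 FPKM in adipocytes rest on few fragments.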

Other observations

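Some genes of the related lists were at least as high in adipocytes as in SVCs, unlike the 8 tested genes above. Itgae was at 1.13 ± 0.223 FPKM (SD, n = 3) in EAT adipocytes and 0.324 ± 0.0528 FPKM in EAT SVCs (limma log2 difference 0.68 ± 0.10, adjusted p = 2.9e-05), and at 1.34 ± 0.0330 FPKM in IAT adipocytes and 2.54 ± 0.509 FPKM in IAT SVCs (log2 difference -0.59 ± 0.10, adjusted p = 1.1e-04). The fraction with the higher Itgae level thus differed between the depots, and the interaction was 1.27 ± 0.14 (adjusted p = 2.0e-05). Btc, the EGF receptor ligand betacellulin, was higher in adipocytes than in SVCs in both depots, at 4.73 ± 0.506 against 1.30 ± 0.0746 FPKM in EAT and 3.23 ± 0.428 against 1.06 ± 0.0795 FPKM in IAT (adjusted p = 1.2e-08 and 1.4e-07). These genes were singled out after their values were seen.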
